A study of Homo sapiens with 8 samples.

Results

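Interferons are secreted proteins that warn cells of infection, and the genes described here are those of the interferons and the receptors that read them in A549 cells, a permanent line grown from a human lung adenocarcinoma. The 8 members, out of 17056 genes in the table, are IFNB1 and IFNL1, which encode interferon beta (type I) and interferon lambda 1 (type III), and the 6 receptor genes IFNAR1, IFNAR2, IFNLR1, IL10RB, IFNGR1 and IFNGR2. They were chosen by having a row in the table, which means a value above 0 in at least 1 library, and with earlier results of these data known, among them the low values of both interferon genes after the knockdown. The difference in the 2 interferon genes between the knockdown and its control is therefore given as a description, without a test. All 8 were above 0 in every library, and 7 passed the filter for testing, a mean of at least 1 FPKM over the 8 libraries (FPKM is a read count per gene divided by gene length and library size).

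RNA of 4 groups of A549 cells was sequenced, with 2 libraries each. ASO is the knockdown of AFAP1-AS1 (an RNA that is long and non-coding), and ASONC its negative control. OE is the overexpression of AFAP1-AS1, and Vector its control. The labels spell out neither the abbreviation ASO, nor the vector, the dose or the time, and they do not say whether the libraries of a group are separate cultures. The p-values therefore describe how far these libraries spread, and that spread may be technical. AFAP1-AS1 is not analysed here, so its level gives no check of the labels.

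Type I interferons bind a receptor made of IFNAR1 and IFNAR2, type III interferons one made of IFNLR1 and IL10RB, and interferon gamma, the type II interferon, one made of IFNGR1 and IFNGR2. The kinases JAK1, TYK2 and JAK2 sit on these receptors and phosphorylate STAT proteins, which enter the nucleus and switch on antiviral genes. Epithelial cells such as those of the lung make interferon beta and interferon lambda when sensors of foreign nucleic acid activate IRF and NF-kB factors at the interferon promoters. Interferon gamma comes mainly from immune cells, and the gene IFNG is not analysed here.

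IFNB1 (chromosome 9, 21077104 to 21077942) has a single exon, and IFNL1 (chromosome 19, 39296407 to 39298673) lies near IFNL2 and IFNL3, which encode further lambda interferons. The genes IFNAR2, IL10RB, IFNAR1 and IFNGR2 lie in this order on chromosome 21, between 33229938 and 33437516, while IFNLR1 is on chromosome 1 (24154168 to 24187289) and IFNGR1 on chromosome 6 (137197484 to 137219385). These positions are RefSeq's on GRCh38, the build in the submitters' processing notes. The 220 bases before the start sites of the 2 interferon genes are shown because these genes had the widest range of all members. Both promoters also hold letters that match an IRF motif, and that of IFNB1 an NF-kB motif. Both run 5′ to 3′ along the gene, from RefSeq on GRCh38.p14, IFNB1 from chr9:21077943-21078162 (minus strand) and IFNL1 from chr19:39296187-39296406 (plus strand), with matches to the motifs named below in capitals.
IFNB1: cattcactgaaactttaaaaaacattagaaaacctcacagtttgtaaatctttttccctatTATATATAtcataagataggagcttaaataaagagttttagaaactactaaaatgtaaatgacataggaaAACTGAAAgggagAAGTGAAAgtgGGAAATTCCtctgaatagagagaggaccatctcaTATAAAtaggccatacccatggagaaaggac
IFNL1: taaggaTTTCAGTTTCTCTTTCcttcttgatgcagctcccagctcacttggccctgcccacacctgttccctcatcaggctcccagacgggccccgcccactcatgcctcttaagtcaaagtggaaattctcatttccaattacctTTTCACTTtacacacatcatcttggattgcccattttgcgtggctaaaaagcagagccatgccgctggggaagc

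Each motif was searched on both strands of the 250 bases before the start, and its share is that of 35116 promoter windows in the RefSeq table. The core of an interferon response element, GAAANNGAA, was in 6.88% of windows. It was absent from the IFNB1 window and matched at 2 overlapping places of the IFNL1 window, on the opposite strand, from -213 to -205 and from -207 to -199. The IRF half-site AANNGAAA, added after the sequences had been seen, was in 20.3% of windows and overlaps the core in letters. It occurred 2 times in IFNB1 (-89 to -82 and -76 to -69) and 3 times in IFNL1. The NF-kB motif GGANNTTCC, in 3.84% of windows, was found in IFNB1 from -65 to -57, and the TATAAA box, in 10.7%, from -31 to -26. The IFNL1 window held neither. TATATA, in 3.73%, gave the overlapping matches farther upstream in IFNB1, and the AP-1 motif TGACTCA, in 4.20%, was in neither window. The IFNL2 and IFNL3 windows differ by 1 base of 250, and both hold the GAAANNGAA core on the opposite strand from -175 to -167. Among the receptor genes the only matches were 2 to GGANNTTCC, both in IFNGR2. IFNAR2 was not in the promoter table. A match is a match of letters, not a measured binding site.

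Each library held between 33697965 and 37548577 reads, recovered from the FPKM values. The ASONC libraries stood apart, with 1435 and 1341 genes listed at 0, where the 6 remaining libraries had 2205 to 2327. Without them, only the means of the 2 interferon genes and the receptor counts in OE and ASO against Vector are given. Of 6 epithelial markers, 5 were above 1 FPKM in every group. The 8 markers of immune cells summed to between 1.57 and 2.71 FPKM, of which CD14 made up most, and 4 of 6 with a row were at 0 in ASO, OE and Vector (1 of 6 in ASONC). The fibroblast markers (4, led by COL1A1) summed to 1.98 and 2.19 FPKM in ASO and 2.67 and 2.70 in ASONC, against 0.588 and 0.672 in OE and 0.566 and 0.639 in Vector. Endothelial markers (3, led by VWF) ran the other way and summed to 0.172 to 0.228 FPKM in ASO and 0.0899 to 0.296 in ASONC, against 0.971 to 1.16 in OE and 1.32 to 1.69 in Vector. The part of either list in the differences between these groups was not tested. Fold changes against Vector also followed gene length and GC content across genes (Spearman's rho of -0.51 and 0.52 for ASONC, and of -0.48 and 0.41 for ASO), and those of ASO against ASONC did so for GC content above all (0.27 and -0.45), while for OE against Vector the values were -0.07 and 0.13. Each comparison, gene lists included, was therefore repeated with a length and GC correction. Unless a corrected value is given beside them, fold changes in the text are uncorrected.

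The interferon genes were high in ASONC and near the limit of detection in ASO. IFNB1 had 0.231 and 0.167 FPKM in ASO, 5.65 and 5.15 in ASONC, 0.528 and 0.317 in OE and 0.283 and 0.259 in Vector. Those values stand for 7 and 5 reads in ASO, 169 and 159 in ASONC, 16 and 10 in OE and 8 and 8 in Vector. Only the ASONC libraries were high. The ASO libraries lay below the Vector libraries, but 7 and 5 reads against 8 and 8 are too few to set an order. IFNL1 had 0.107 and 0.0362 FPKM in ASO, 5.65 and 5.61 in ASONC, 1.89 and 1.58 in OE and 0.421 and 0.945 in Vector. Its reads were 3 and 1 in ASO, 156 and 160 in ASONC, 53 and 46 in OE and 11 and 27 in Vector. The 4 groups of IFNL1 did not overlap and ran from ASO through Vector and OE to ASONC. Here and below, the share of all genes whose groups separate without overlap was not counted, so a lack of overlap adds no weight. In RNA from whole cultures, fewer cells that express a gene and less RNA per cell cannot be told apart.

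**Figure D1:**
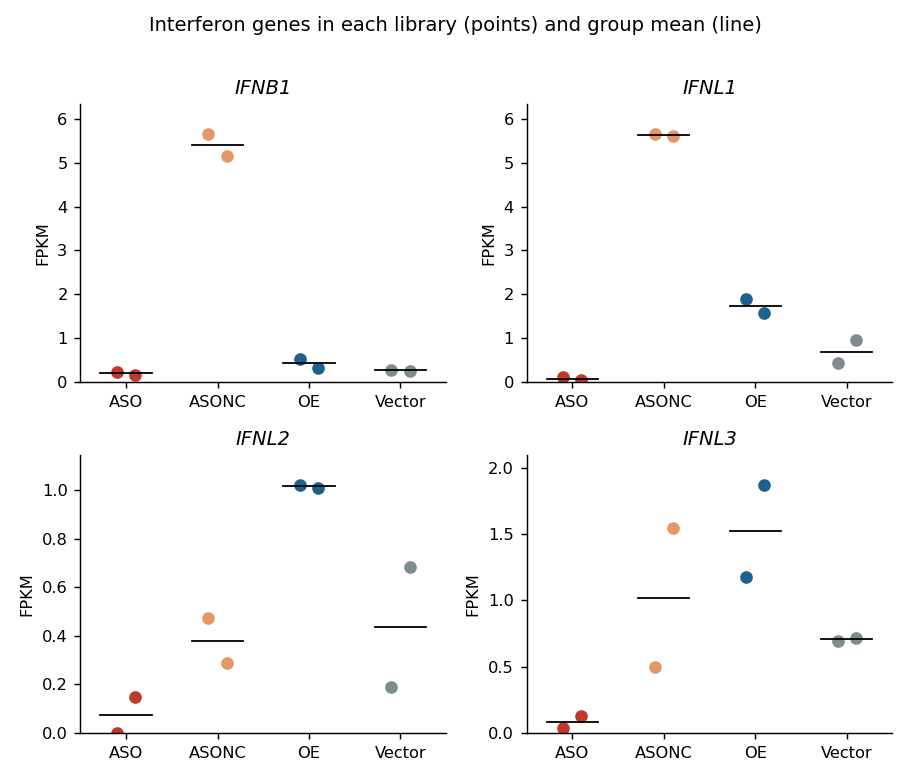
FPKM (vertical axes, from 0) of IFNB1, IFNL1, IFNL2 and IFNL3 in the 2 libraries of each group (points), with the group mean as a line. ASONC stands far above the other groups for IFNB1 (mean 5.40 FPKM) and IFNL1 (5.63 FPKM), whereas IFNL2 has its highest values in OE.

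Between ASO and ASONC, the read rate of IFNB1 in ASO was 0.0370 of that in ASONC (95% exact interval 0.0189 to 0.0655, from 12 and 328 reads), and that of IFNL1 was 0.0128 (0.00347 to 0.0331, from 4 and 316 reads). These intervals and all later ones for read rates cover counting error only. On the log2(FPKM + 1) scale the differences were -2.42 for IFNB1 and -2.63 for IFNL1, smaller than the read rates give because the added 1 weighs most on low values. Between ASONC and Vector, the read rate of IFNB1 was higher in ASONC by a factor with an interval of 12.1 to 35.4 (328 and 16 reads), and that of IFNL1 by 8.10 times (5.78 to 11.7, from 316 and 38 reads). Both genes reach the filter only through the ASONC libraries, since without these their means were 0.297 and 0.830 FPKM, so no test is given for the comparisons with ASONC. The 2 comparisons share the ASONC libraries, and neither is independent of the other.

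Against Vector, both interferon genes had lower values in ASO, given without a test for the same reasons, since the ASO values were known when the genes were chosen and both pass the filter only through ASONC. IFNL1 had 0.0718 ± 0.050 FPKM in ASO and 0.683 ± 0.37 FPKM in Vector (SD, n = 2 each), and its read rate in ASO was 0.104 of that in Vector (95% exact interval 0.0269 to 0.288, from 4 and 38 reads). IFNB1 had 0.199 ± 0.045 FPKM in ASO and 0.271 ± 0.017 FPKM in Vector, and its read rate ratio was 0.739 with an interval of 0.319 to 1.66. For IFNB1 no difference was therefore detectable from the reads at this depth.

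In OE, 3 lambda interferon genes had higher values than in Vector in both libraries. For IFNL1 the read rate was 2.49 times that of Vector (1.70 to 3.73). This interval and those below cover counting error only, while libraries of the same group differed beyond counting noise. On the log2(FPKM + 1) scale the difference of IFNL1 was 0.72. Leaving out 1 library moved it between 0.49 (without Vector replicate 1) and 0.94 (without Vector replicate 2). Limma did not call it with all libraries, but IFNL1 passes the filter only through ASONC, so that test decides nothing here. IFNL2 had 35 and 36 reads in OE and 6 and 24 in Vector, a ratio of 2.27 (1.46 to 3.60), and IFNL3 had 29 and 48 reads in OE and 16 and 18 in Vector, a ratio of 2.17 (1.43 to 3.35). Both lie below the filter, and with voom on recovered reads and no filter, an alternative chosen after seeing the data, their adjusted p-values were 0.899 and 0.907 (0.869 for IFNL1). The groups did not overlap for any of the 3 genes, but the share of all genes that separate in this way was not counted, so this adds no weight. Genes called between OE and Vector were 0.0657% of those tested for higher and 0% for lower. IFNB1 had 0.422 ± 0.15 FPKM in OE and 0.271 ± 0.017 FPKM in Vector, a difference of 0.16 on the log2(FPKM + 1) scale. Limma did not call this gene either, and it too passes the filter only through ASONC.

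IFNL2 and IFNL3 differed from IFNL1 in ASONC. IFNL2 had 0 and 5 reads in ASO and 16 and 10 in ASONC, and IFNL3 had 1 and 3 in ASO and 12 and 39 in ASONC. ASONC was above ASO for both. The read rate in ASO was 0.194 of that in ASONC for IFNL2 (0.0583 to 0.514) and 0.0793 for IFNL3 (0.0208 to 0.216). Against Vector, however, the ASONC libraries overlapped in both genes, with read rate ratios of 0.844 for IFNL2 (0.480 to 1.48) and 1.46 for IFNL3 (0.929 to 2.33), where IFNL1 had 8.10. ASO was below Vector in both, with ratios of 0.164 for IFNL2 (0.0497 to 0.427) and 0.116 for IFNL3 (0.0299 to 0.325). No test is given for ASO in these genes, which lie below the filter and had 0 to 5 reads in each ASO library. IFNL2 and IFNL3 are near-identical copies, so reads may be split between them, and their single values are uncertain.

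Other interferon genes were low throughout. IFNE, an interferon of epithelia, had 45 and 22 reads in ASO, 44 and 24 in ASONC, 26 and 46 in OE and 37 and 36 in Vector, and the groups overlapped in all 4 comparisons. IFNA2 had 1 read, in an ASONC library, and IFNA10 had 4 reads, all in an ASO library. These are 5 interferon genes with a row outside the members, with IFNL2 and IFNL3.

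The receptor genes held a steady level in comparison, with the highest library between 1.20 times (IFNAR1) and 1.80 times (IFNGR2) the lowest, against 33.8 times for IFNB1 and 156 times for IFNL1. The lowest library had 5 reads of IFNB1 and 1 of IFNL1, so the ratios of these genes are uncertain. Their order by FPKM, a level per length, differed between groups. In ASO and ASONC it began with IFNGR2 (22.8 ± 1.3 and 26.1 ± 1.9 FPKM), then IL10RB (17.0 ± 0.86 and 14.8 ± 0.52) and IFNGR1 (12.8 ± 0.15 and 12.9 ± 0.43). In OE and Vector IFNGR1 led (19.9 ± 0.98 and 19.2 ± 0.46), followed by IFNGR2 (15.6 ± 0.38 and 16.1 ± 0.46) and IL10RB (14.1 ± 0.84 and 13.9 ± 0.29). IFNAR1 and IFNAR2 came next in all groups, and IFNAR2 was above IFNAR1 only in ASONC. IFNLR1 was the lowest receptor gene everywhere, at 0.385 to 0.524 FPKM on average. Neighbours in this order overlapped between libraries only for IFNL1 with IFNB1 in ASONC, IFNLR1 with IFNB1 in OE and IFNL1 with IFNLR1 in Vector.

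**Figure D2:**
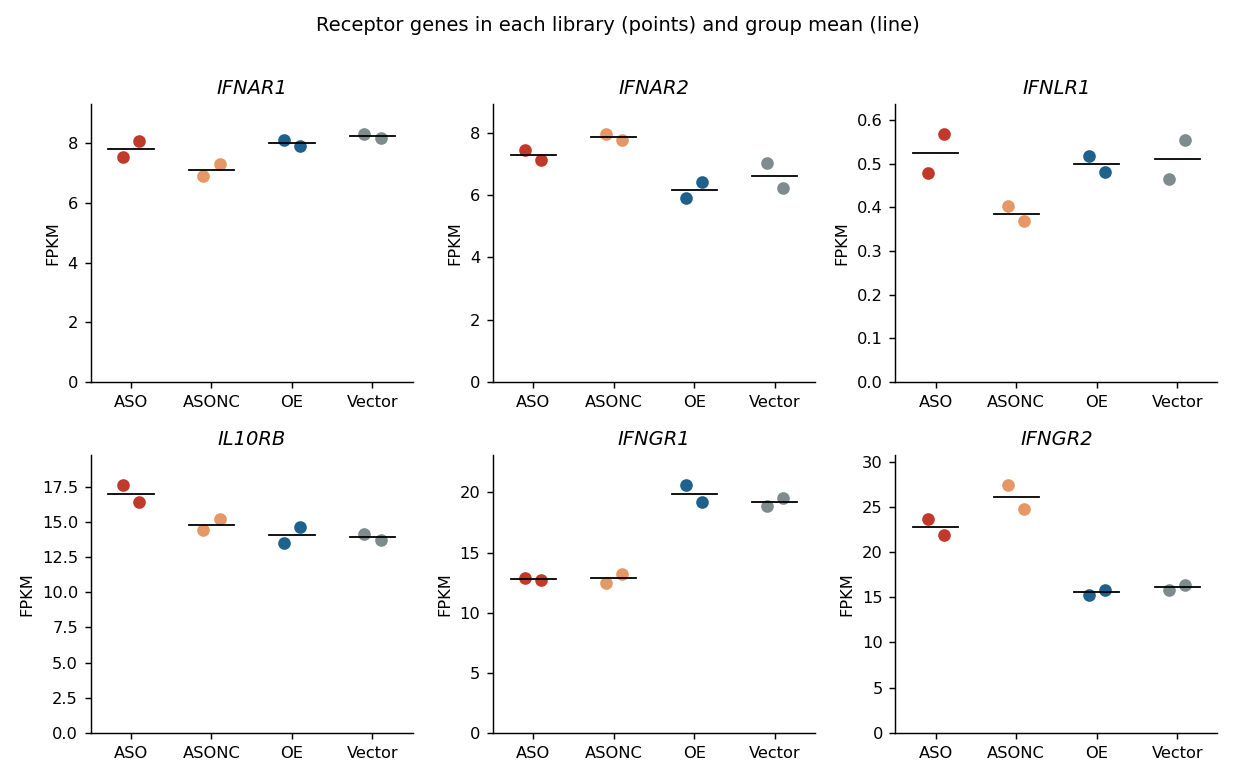
FPKM (vertical axes, from 0) of the 6 receptor genes in the 2 libraries of each group (points), with the group mean as a line. IFNGR1 is lower and IFNGR2 higher in ASO and ASONC than in OE and Vector, with no overlap.

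The interferon gamma receptor genes moved in opposite directions. IFNGR1, the subunit that binds interferon gamma, had 12.9 and 12.7 FPKM in ASO, 12.5 and 13.2 in ASONC, 20.6 and 19.2 in OE and 18.9 and 19.5 in Vector. All 4 libraries of ASO and ASONC lay below all 4 of OE and Vector. It fell in ASONC against Vector (-0.54 ± 0.06, limma adjusted p = 4.16e-06) and in ASO against Vector (-0.55 ± 0.06, limma adjusted p = 5.84e-06). IFNGR2, the subunit that carries JAK2, had 23.7 and 21.9 FPKM in ASO, 27.4 and 24.8 in ASONC, 15.3 and 15.8 in OE and 15.8 and 16.4 in Vector. Here ASO and ASONC lay above OE and Vector without overlap. It rose in ASONC against Vector (0.66 ± 0.06, limma adjusted p = 1.78e-06) and in ASO against Vector (0.48 ± 0.06, limma adjusted p = 3.83e-05). Both genes passed in every alternative run for these 2 comparisons, which share the Vector libraries. The share of all genes whose libraries separate in this way was not counted, so the lack of overlap adds no weight. Limma called 36.8% of all tested genes higher and 31.8% lower in ASONC against Vector, and 34.1% and 28.8% in ASO against Vector. With the length and GC correction IFNGR1 had -0.43 in ASONC and -0.51 in ASO against Vector, and IFNGR2 had 0.35 and 0.26. The fibroblast and endothelial marker sums given above split the libraries along the same line, in opposite directions. A batch, or anything else that sets the knockdown arm apart from the vector arm, cannot be told apart from these groups.

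The ratio of IFNGR2 to IFNGR1 within a library, in which the library size cancels, was 1.84 and 1.73 in ASO, 2.19 and 1.89 in ASONC, 0.742 and 0.823 in OE and 0.838 and 0.843 in Vector. So IFNGR2 exceeded IFNGR1 in all 4 ASO and ASONC libraries and stayed below it in all 4 OE and Vector libraries. The type I receptor shifted less, and IFNAR2 over IFNAR1 averaged 0.935 ± 0.076 in ASO, 1.11 ± 0.063 in ASONC, 0.767 ± 0.058 in OE and 0.803 ± 0.060 in Vector (SD, n = 2 each). These ratios are uncorrected and still hold the length and GC trend. With the correction, IFNAR2 and IFNAR1 had 0.25 and 0.13 in ASONC against Vector. In ASO against Vector they had 0.14 and 0.16, so there the shift between them was not seen. IFNGR1 and IFNGR2 kept opposite signs with the correction, at smaller sizes. For the lambda receptor, IFNLR1 was 2.72% and 3.46% of IL10RB in ASO, 2.79% and 2.43% in ASONC, 3.84% and 3.28% in OE and 3.31% and 4.06% in Vector. IL10RB also serves the receptors of interleukin 10 and its relatives.

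**Figure D3:**
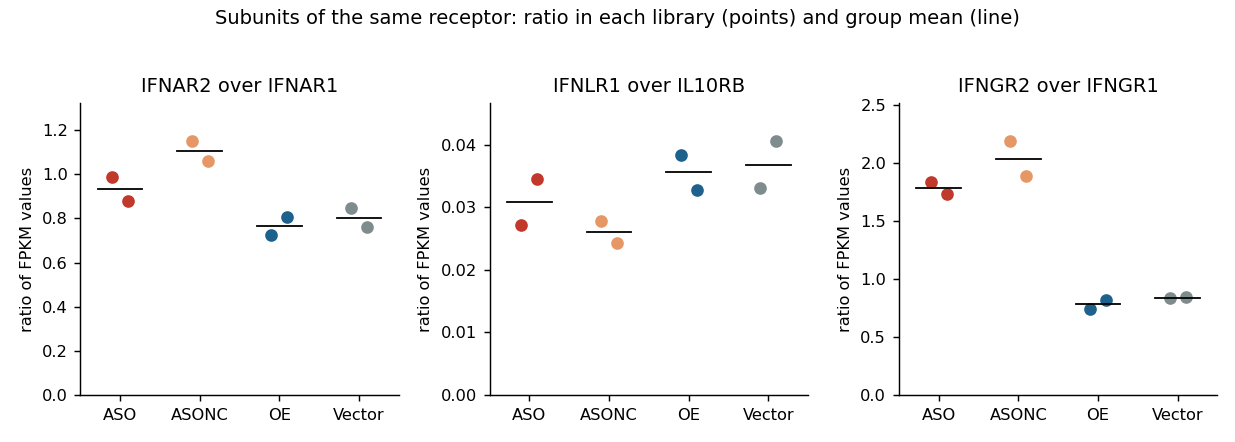
Ratio of the FPKM values of the 2 subunits of each receptor (vertical axes, from 0) in the 2 libraries of each group (points), with the group mean as a line. The gamma receptor ratio is between 1.73 and 2.19 in ASO and ASONC and between 0.742 and 0.843 in OE and Vector.

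IFNAR1, which carries TYK2, had 7.53 and 8.08 FPKM in ASO, 6.90 and 7.30 in ASONC, 8.12 and 7.92 in OE and 8.31 and 8.18 in Vector. ASONC was below all other libraries. IFNAR1 fell in ASONC against Vector (-0.19 ± 0.06, limma adjusted p = 0.0203), but the length and GC correction turned the value to 0.13 (limma adjusted p = 0.0883). It also missed the threshold without ASONC replicate 1 (-0.16, limma adjusted p = 0.110), Vector replicate 1 (-0.18, 0.0787) or Vector replicate 2 (-0.20, 0.0532). With 6343 bases of counted length IFNAR1 is the longest member. IFNAR2, the subunit of the type I receptor that carries JAK1, had 7.45 and 7.12 FPKM in ASO, 7.95 and 7.76 in ASONC, 5.89 and 6.40 in OE and 7.02 and 6.22 in Vector. It rose in ASONC against Vector (0.22 ± 0.07, limma adjusted p = 0.0193), a call lost with median-of-ratios scaling (0.16, limma adjusted p = 0.0651) and TPM scaling (0.03, limma adjusted p = 0.779), and without ASONC replicate 1 (0.20, 0.0809) or Vector replicate 2 (0.14, 0.163). In ASO against Vector IFNAR1 had -0.07 ± 0.06 (limma adjusted p = 0.363) and IFNAR2 0.12 ± 0.07 (limma adjusted p = 0.166), and neither passed. The direction of IFNAR1 there depended on the setting, since it passed as lower with TPM scaling (-0.23, limma adjusted p = 0.0116) and as higher with the length and GC correction (0.16, limma adjusted p = 0.0462).

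IL10RB had 17.6 and 16.4 FPKM in ASO, 14.4 and 15.2 in ASONC, 13.5 and 14.6 in OE and 14.1 and 13.7 in Vector. The ASO libraries lay above all others. It rose in ASO against Vector (0.28 ± 0.06, limma adjusted p = 0.00200), and it passed in 18 of 19 alternatives, all but TPM scaling (0.11, limma adjusted p = 0.134). IFNLR1, which gives the lambda receptor its specificity, had 0.480 and 0.568 FPKM in ASO, 0.403 and 0.368 in ASONC, 0.517 and 0.481 in OE and 0.466 and 0.554 in Vector. ASONC was the lowest, but IFNLR1 is below the filter. By reads, IFNLR1 was 1.36 times as high in ASO as in ASONC (1.09 to 1.70, counting error only), and with voom and no filter this did not pass (0.44 ± 0.27, limma adjusted p = 0.322).

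Counted over the 6 receptor genes, of which 5 were tested, 2 rose and 2 fell in ASONC against Vector, where 36.8% of all tested genes were called higher and 31.8% lower. In ASO against Vector 2 rose and 1 fell, beside 34.1% and 28.8% of all tested genes. In ASO against ASONC, IL10RB rose (0.19 ± 0.06, limma adjusted p = 0.0446) and IFNGR2 fell (-0.19 ± 0.06, limma adjusted p = 0.0499), beside 11.3% of all tested genes called higher and 10.9% lower. Those 2 calls lie at the threshold, and IL10RB passed in 5 of 18 alternatives and IFNGR2 in 3 of 18. Leaving out any of the 4 libraries ended the IL10RB call (limma adjusted p from 0.0656 without ASO replicate 2 to 0.230 without ASO replicate 1). The IFNGR2 call ended without ASO replicate 1 (limma adjusted p = 0.0550), ASO replicate 2 (0.289) or ASONC replicate 1 (0.292). In OE against Vector limma called 0 of the 5, 0 had an unadjusted p below 0.05, and voom called 0. The median fold change of the 5 was -0.04 in OE against Vector, -0.01 in ASO against ASONC, 0.09 in ASONC against Vector and 0.12 in ASO against Vector, beside 0.00, 0.02, 0.04 and 0.03 over all tested genes.

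TPM scaling moved the median over all genes to -0.15 in ASONC against Vector and -0.12 in ASO against Vector. It also lowered the share of called genes that were higher to 31.7%, against 53.6% without it, in ASONC against Vector, and to 31.9%, against 54.2%, in ASO against Vector. In ASO against ASONC that share was 66.4% by TPM and 62.1% by median-of-ratios scaling, against 50.8% with the values as deposited. Relative to the shifted medians, IFNGR2 stayed higher and IFNGR1 lower against Vector in both groups.

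**Figure D4:**
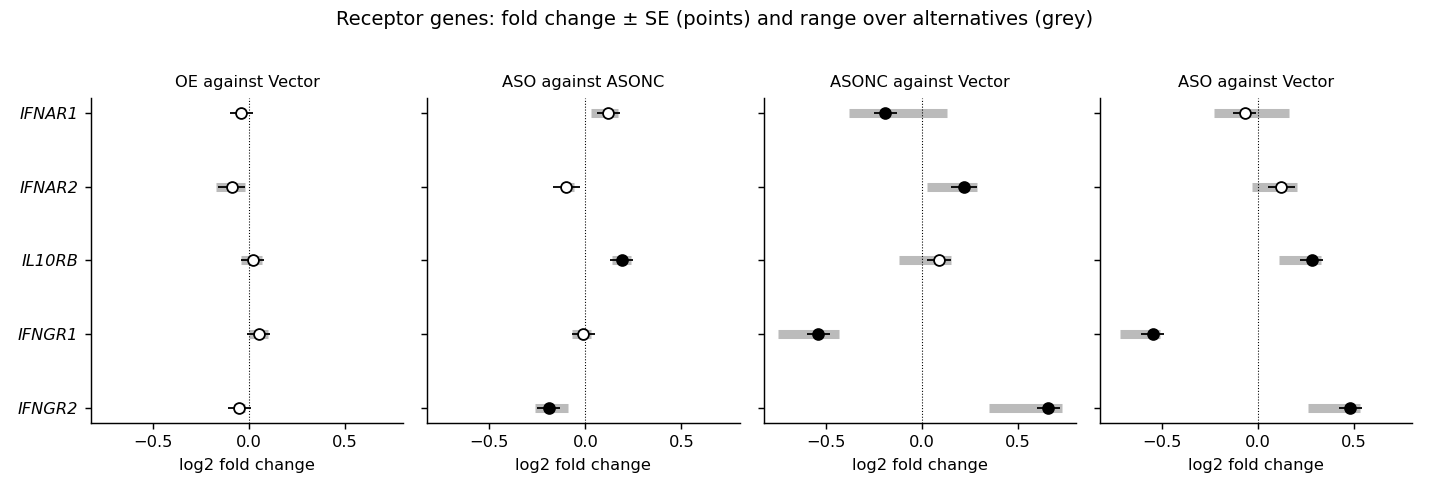
Log2 fold changes on the log2(FPKM + 1) scale (horizontal axis) of the 5 tested receptor genes, with SE as bars and the range over all alternatives in grey, where a filled point marks a gene that passed and an open point one that did not. IFNGR1 (-0.54 in ASONC against Vector) and IFNGR2 (0.66) keep their side of 0 in every alternative against Vector, whereas the range of IFNAR1 crosses 0 there.

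Downstream of the receptors, the list of 9 relay genes (8 tested) had 0 higher and 3 lower in ASO against ASONC, with a median of -0.04, where 11.3% of all tested genes were higher and 10.9% lower. Among them was IRF9, the DNA-binding partner in the complex that type I and III interferons activate, which had 14.1 and 12.5 in ASO and 40.8 and 37.5 in ASONC (-1.49 ± 0.07, limma adjusted p = 3.79e-08). STAT2, another part of that complex, had 4.23 and 4.95 in ASO and 6.78 and 6.56 in ASONC (-0.46 ± 0.08, limma adjusted p = 0.00176). In ASONC against Vector 2 rose and 5 fell (36.8% and 31.8% of all tested genes), with IRF9 higher by 0.72 ± 0.07, or 0.34 ± 0.07 with the length and GC correction. In ASO against Vector 0 rose and 7 fell (34.1% and 28.8% of all tested genes). With the correction these counts were 1 and 3 in ASONC and 0 and 5 in ASO. JAK1, the kinase shared by all 3 receptors, had 50.6 and 51.6 FPKM in ASO and 49.7 and 49.8 in ASONC, against 84.5 and 84.7 in Vector. It fell against Vector in both (-0.72 ± 0.04 in ASO and -0.75 ± 0.04 in ASONC), and with the correction it had -0.64 ± 0.03 in each. JAK2 fell too (-0.38 ± 0.09 in ASO and -0.47 ± 0.09 in ASONC), while TYK2 rose in ASONC against Vector (0.16 ± 0.06, limma adjusted p = 0.0321). The correction ended these calls, with -0.14 and -0.12 for JAK2 (limma adjusted p = 0.216 in ASO and 0.270 in ASONC) and -0.05 for TYK2 (limma adjusted p = 0.464). In OE against Vector limma called 0 relay genes, 2 had an unadjusted p below 0.05, and voom called 2.

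Of 13 tested feedback genes, 2 rose and 5 fell in ASO against ASONC (11.3% and 10.9% of all tested genes), 7 rose and 3 fell in ASONC against Vector (36.8% and 31.8%) and 3 rose and 5 fell in ASO against Vector (34.1% and 28.8%). The share called in total was near that of all genes in the comparisons with Vector. With the length and GC correction the counts were 0 and 5, 4 and 4, and 1 and 4, and uncorrected limma called 0 in OE against Vector (1 with an unadjusted p below 0.05, and 0 by voom). SOCS1, an inhibitor of JAK kinases, had 0.784 and 0.318 FPKM in ASO and 2.31 and 3.69 in ASONC, against 0.263 and 0.197 in Vector. It was lower in ASO than in ASONC (-1.36) and higher in ASONC than in Vector (1.68, and 1.11 with the correction). Every library outside ASONC was below 1 FPKM (0.291 and 0.666 in OE), so SOCS1 passes the filter only through ASONC. No test is therefore given for SOCS1, although the counts above include it. USP18, which binds IFNAR2 and dampens type I signalling, had 4.99 and 5.75 FPKM in ASO and 9.92 and 8.89 in ASONC, against 6.63 and 7.01 in Vector, and it too fell against ASONC (-0.71 ± 0.08). SOCS3 fell in ASO against ASONC (-0.53 ± 0.10) and rose in ASONC against Vector (0.58 ± 0.10, and 0.25 ± 0.09 with the correction).

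Upstream, 9 of 16 tested regulators of interferon genes fell and 0 rose in ASO against ASONC, with a median of -0.21, beside 10.9% and 11.3% of all tested genes. In ASONC against Vector 8 rose and 6 fell (36.8% and 31.8% of all tested genes), and in ASO against Vector 5 rose and 8 fell (34.1% and 28.8%). The length and GC correction gave 8 lower and 0 higher in ASO against ASONC, 6 higher and 5 lower in ASONC against Vector, and 2 higher and 10 lower in ASO against Vector. In OE against Vector limma and voom called 0, with 0 at an unadjusted p below 0.05. IRF7, a factor that interferon itself induces, had 2.97 and 1.75 FPKM in ASO, 16.0 and 15.6 in ASONC, 9.09 and 8.43 in OE and 6.18 and 8.43 in Vector. ASONC was the highest and ASO the lowest, without overlap (-2.34 ± 0.15 in ASO against ASONC). ATF3, a stress-induced factor, had 24.2 and 24.5 FPKM in ASO and 87.4 and 85.5 in ASONC, against 28.5 and 32.1 in Vector. It fell in ASO against ASONC (-1.79 ± 0.06) and rose in ASONC against Vector (1.49 ± 0.06). IRF3 (-0.25 ± 0.05), IRF1 (-0.54 ± 0.07), NFKB1 (-0.26 ± 0.07) and RELA (-0.21 ± 0.06) fell in ASO against ASONC as well. With the correction RELA did not pass (-0.14, limma adjusted p = 0.148) and IRF3 had -0.16 (limma adjusted p = 0.0459).

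Sensors and adaptors had 15 tested genes, of which 1 rose and 7 fell in ASO against ASONC, with a median of -0.26, beside 11.3% and 10.9% of all tested genes. In ASONC against Vector 5 rose and 5 fell, shares close to the 36.8% and 31.8% of all tested genes. In ASO against Vector 5 rose and 9 fell (34.1% and 28.8% of all tested genes). The length and GC correction gave 1 and 7, 7 and 3, and 2 and 8. There were 0 in OE against Vector by limma (3 with an unadjusted p below 0.05, and 1 called by voom). DDX58, which encodes the RNA sensor RIG-I, had 4.89 and 4.18 FPKM in ASO and 11.2 and 9.72 in ASONC, against 10.2 and 9.98 in Vector. It fell in ASO against ASONC (-1.05 ± 0.08) and in ASO against Vector (limma adjusted p = 8.66e-07), and in ASONC against Vector it had 0.05 ± 0.08 (limma adjusted p = 0.606), a value that passed as higher with the correction (0.31 ± 0.08, limma adjusted p = 0.00614). IFIH1, which encodes the RNA sensor MDA5, had 1.81 and 1.81 FPKM in ASO and 6.93 and 8.14 in ASONC (-1.60 ± 0.10). TBK1, the kinase that activates IRF3, was the gene that rose in ASO against ASONC (0.30 ± 0.06), at 11.8 and 11.1 FPKM in ASO and 9.61 and 8.68 in ASONC. MAVS, the adaptor of both sensors, had 0.09 ± 0.06 there (limma adjusted p = 0.253), and the DNA sensor CGAS 0.16 ± 0.10 (limma adjusted p = 0.244). DHX58, TLR3 and STING1 were below the filter.

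**Figure D5:**
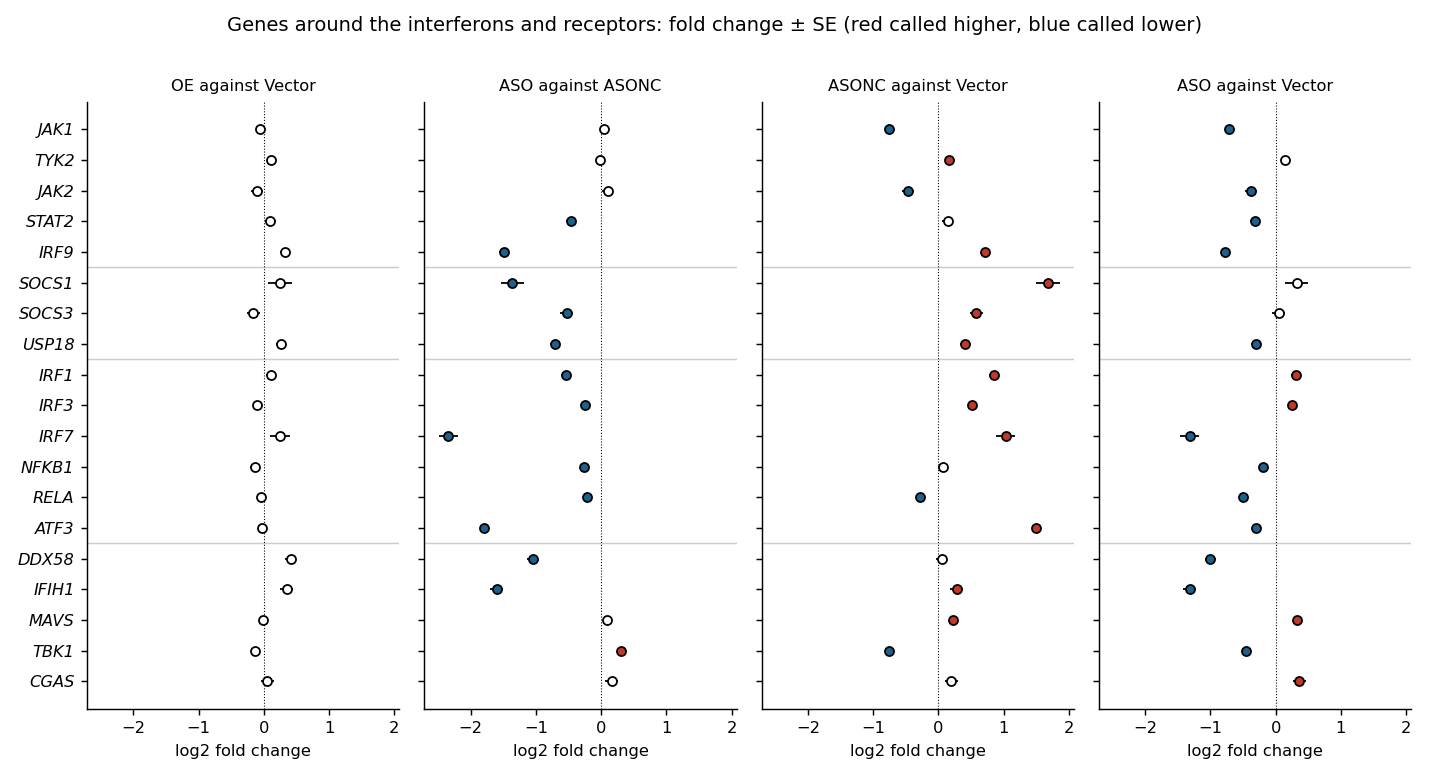
Log2 fold changes on the log2(FPKM + 1) scale (horizontal axis) with SE as bars for named genes of the relay, feedback, regulator and sensor groups, from top to bottom and parted by grey lines. Red points passed as higher, blue as lower and white did not pass, and the largest fall is that of IRF7 in ASO against ASONC (-2.34).

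All 12 tested targets shared by type I and III interferon fell in ASO against ASONC, with a median of -1.81, and all 12 fell in ASO against Vector, with a median of -1.31, where 10.9% and 28.8% of all tested genes fell. In ASONC against Vector 11 rose and 0 fell, beside 36.8% of all tested genes higher, and in OE against Vector 6 rose and 0 fell, beside 0.0657% higher. The medians were 0.49 and 0.53. With the length and GC correction the median in ASONC against Vector was 0.32, with 11 higher and 0 lower. In OE against Vector it was 0.52, with 7 higher and 0 lower. In ASO the corrected median was -1.82 against ASONC and -1.38 against Vector, with all 12 lower in each. These directions were known from earlier results when the list was made. Of 12 targets mainly of interferon gamma, 1 was tested (ICAM1), and it did not pass in any comparison. The other class II cytokine receptors had 2 tested genes. F3, which encodes the coagulation receptor tissue factor, rose in ASO (0.82 ± 0.12) and in ASONC (0.74 ± 0.12) against Vector. IL22RA1, a receptor subunit for interleukin 22, rose in ASO against Vector (0.26 ± 0.09, limma adjusted p = 0.0290), a call that the length and GC correction ended (0.07, limma adjusted p = 0.566).

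The chromosome 21 list, which holds the 4 receptor genes of the cluster and their neighbours, had 10 tested genes, of which 3 rose and 1 fell in ASO against ASONC, 2 rose and 6 fell in ASONC against Vector, and 3 rose and 3 fell in ASO against Vector. Over all tested genes these shares were 11.3% and 10.9%, 36.8% and 31.8%, and 34.1% and 28.8%. With the length and GC correction the counts were 1 and 0, 3 and 4, and 4 and 3. In OE against Vector limma and voom called 0, and 0 had an unadjusted p below 0.05. IFNGR2 rose in ASONC against Vector while SON, a splicing gene nearby, fell (-0.94 ± 0.05, limma adjusted p = 3.72e-08, and -0.68 ± 0.04 with the correction), and GART, a purine synthesis gene, fell by 0.22 (± 0.05), the same with the correction.

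By Pearson's correlation of log2(FPKM + 1) over the 8 libraries, IFNB1 was most like RRAD (0.996), STC2 (0.994), ARC (0.992), PCID2 (0.992) and PLA2G4C (0.991). IFNL1 was most like LPXN (0.995), IFI35 (0.982), TAP1 (0.982), SNAPC1 (0.980) and IRAK2 (0.977). No gene was among the closest 5 of both. IFNGR1 was closest to ARID1A (0.996), NIPBL (0.996) and LATS2 (0.995), and IFNGR2 to CREB3 (0.997), ELP5 (0.997) and NDUFB10 (0.996). The highest values were 0.988 for IFNAR1 (GOLM2), 0.987 for IFNAR2 (FOXP1), 0.977 for IL10RB (WDSUB1) and 0.947 for IFNLR1 (GNAL). These are descriptions over 8 points that share 4 groups, and a gene that is high in ASONC alone resembles IFNB1 through those 2 libraries.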

How the data were processed

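RNA of 8 A549 libraries was measured by RNA-seq. The authors deposited FPKM values for 17056 genes in all 8 libraries, per the file header and labels. HISAT2, HTSeq, featureCounts, R 3.2.0 and GRCh38 are named in the submitters' processing notes. Their roles, the filters and the strand use were not given in the sources used here. Members and gene lists were chosen with earlier results of these data known. Whole reads were recovered from the FPKM steps of all 17056 genes (tolerance 0.02 reads). Groups were compared with limma 3.58.1 under R 4.3.3 (two-sided, eBayes with trend) on log2(FPKM + 1) of 10648 genes averaging at least 1 FPKM, with all 8 libraries in 1 fit (4 residual degrees of freedom) and Benjamini-Hochberg adjustment at 0.05. Both the fit and the read recovery were tested on simulated data. Read rate ratios have exact 95% intervals. Libraries of a group differed beyond counting noise (chi-square over its degrees of freedom, 5.12 to 5.90) and were kept as separate samples. Genes were named by role (all members, fixed relay, feedback, regulator and sensor genes) and by likeness. GENCODE 29 gave length and GC for 99.8% of tested genes. With 2 libraries a group, no exact permutation test can pass. The protein sequences planned for the interferons are not used here. Alternatives were other pseudocounts, filters, scalings, a block, a length and GC correction, voom and leaving libraries out. A relay gene of the fixed list is not reported here by name.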

Additional observations from a re-analysis of the deposited data

How the results depend on the processing

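Against Vector, the calls of IFNGR1 and IFNGR2 held in every alternative run. Of 518 values of members under alternatives, 439 kept direction and, where there was a test, side of the threshold. The 518 include values without a test, those of IFNLR1 and those of IFNB1 and IFNL1 in the comparisons with ASONC. The number of receptor genes called in ASO against ASONC, 2, was 1 with pseudocounts of 0.1 and 0.5, median-of-ratios scaling, TPM scaling and voom. It was 0 without a filter, with quantile scaling, only the compared libraries in the fit, the replicate block, the length and GC correction, both of these together, no trend, or voom without a filter, and 0 to 1 when 1 library was left out. In ASONC against Vector the number, 4, ranged from 2 (without ASONC replicate 1 or Vector replicate 2) to 4. Values with no call that changed sign were IL10RB in OE against Vector (-0.04 without OE replicate 2 to 0.07 without OE replicate 1, and -0.0033 without Vector replicate 2), IFNGR1 in ASO against ASONC (0.02 with median-of-ratios scaling, 0.03 with TPM scaling, 0.0044 without ASO replicate 2, 0.02 without ASONC replicate 2), IL10RB in ASONC against Vector (-0.12, TPM scaling) and IFNAR2 in ASO against Vector (-0.03, TPM scaling). With the length and GC correction, alone or with the block, IFNAR1 turned to 0.13 in ASONC against Vector and to 0.16 in ASO against Vector (limma adjusted p = 0.0462 and 0.0525). The cause was not tested. Replicate numbers did not pair the libraries (correlations of the 2 groups' replicate differences between -0.05 and 0.06), and the replicate block changed no count except that of ASO against ASONC, to 0. Voom without a filter and the fits without the ASONC libraries were chosen after seeing the data, and without the ASONC libraries the receptor counts were 0 in OE against Vector and 3 in ASO against Vector. Low reads limit IFNB1 and IFNL1 in ASO, where 1 to 7 reads stand behind each value.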
